A study of Homo sapiens with 102 samples.

Results

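CenU codes T051 to T064 are 14 of the position codes that mark single synthetic alphoid units in human artificial chromosomes (HACs). They were chosen by CENP-A density in untreated cells of the line HAC 4-65, where their numbers lie between 2 CENP-A rich runs, T030 to T050 and T065 to T083, so their density in those cells is given as a description. A code was counted as carried by HAC 4-65 where its median share over the 49 libraries of that line was at least 0.1% of the reads on T codes, and 4 of the 14 passed, T051 (median 1.08%), T054 (0.485%), T055 (0.357%) and T052 (0.272%). The other 10, T053 and T056 to T064, had medians of 0.0107% to 0.0214%. Over all T codes 75 were carried. Just inside the 0.1% limit among the members lay T052, and the code just outside it among all codes was T085 at 0.0998%.

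CENP-A replaces histone H3 at active centromeres, where the kinetochore is built on it. In human centromeres it sits on alphoid satellite arrays and occupies only part of each array, within chromatin that also holds modified H3. H3K4me2, H3K14ac, H4K8ac and H3K36me2 are marks usually found in open or transcribed chromatin, H4K20me1 has been described on the nucleosomes of active centromeres, and H3K9me3 marks constitutive heterochromatin.

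All cells were HT1080, an established human fibrosarcoma line, each carrying a HAC that was kept under G418 selection. The HAC holds CenU units, with CENP-B binding sites, and NCU units, in which these sites are mutated, and T codes were read as CenU and L codes as NCU from the construct names. HAC 4-65 cells were untreated, arrested at G1/S by thymidine, arrested in metaphase by colcemid, collected 3 h after release from colcemid, or treated with siControl, siKAT7 or siHJURP. KAT7 is an acetyltransferase of histones H3 and H4, and HJURP is the chaperone that deposits CENP-A. Each of the 7 conditions had 1 library for CENP-A and for each of the 6 marks. The lines HAC 1-8, HAC 4-2, HAC 3-6 and HAC 4-49 had 1 CENP-A library each from untreated cells. Each line stands for 1 isolate of transfected cells, and its array formed in that isolate. There were no replicates, and counting intervals (95%) cover counting error only, since reads from PCR without molecular identifiers are not separate molecules.

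The codes that carry the account are printed here 5′ to 3′, in T numbering, with the bases that vary between CenU codes (positions 9, 10, 14, 15, 19 and 20 of 23) in capitals. T050 is the neighbour in the CENP-A rich run, and T053 is the code between carried ones that HAC 4-65 did not hold at the limit.
T050: ggggaaaaACcccATtttATggg
T051: ggggaaaaACcccAGtttAGggg
T052: ggggaaaaACcccACtttACggg
T053: ggggaaaaACcccTAtttTAggg
T054: ggggaaaaACcccTTtttTTggg
T055: ggggaaaaACcccTGtttTGggg

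The 14 members shared AC at positions 9 and 10 with T049 and T050, a block of 16 codes, and differed from each other at 2 to 4 positions. Each had 4 CenU codes at 1 mismatch. The NCU code of the same number differed from its CenU code by G4C, counted from 1 at the 5′ end. Code numbers follow the input construct, and the order of the units in the HAC was not analysed here.

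Matched reads per HAC 4-65 library ran from 1494 (CENP-A, siControl) to 1212786, with a median of 203884. The libraries under 10000 numbered 4, CENP-A in thymidine, siControl and siHJURP cells and H3K4me2 in siHJURP cells. In 5 libraries the carried codes scattered widely (log2 SD of 1.55 to 2.82, against 0.152 to 1.02 in the others). These were H3K4me2, H4K8ac and H4K20me1 after release and H3K14ac in colcemid and siHJURP cells, and results that rest on them are given with and without them.

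The 10 codes below the limit had reads close to those seen in a line that does not hold them. In HAC 1-20, whose construct holds the CenU units from T065 on, the 14 members had code medians of 0.00413% to 0.0118% over 49 libraries. In HAC 4-65 the highest single value of a code below the limit was 0.156% of T reads, in H3K14ac of untreated cells. Their summed share in the CENP-A libraries was 0.0385% to 0.134%, against 1.49% to 3.33% for the 4 carried codes. In the mark libraries the sum of the 10 reached 0.636% (H3K14ac, untreated cells), against 2.19% for the carried codes. In H3K14ac of siHJURP cells it was 0.308%, above the 0.0937% of the carried codes. These 10 codes are therefore not described further in HAC 4-65. Reads of a carried code below the highest of these 10 in the same library are near this background.

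CENP-A was high on T051 and low on T052, T054 and T055. T051 took 1.31% of the T reads in untreated cells, 2.15% in thymidine, 1.59% in colcemid, 3.11% after release, 1.58% in siControl, 2.35% in siKAT7 and 1.35% in siHJURP cells. In each of the 7 libraries it lay above every code that was not carried. T052 took 0.0596%, 0.0770%, 0.0632%, 0.0103%, 0%, 0.0113% and 0.0376% in the same order. The zero was 0 of 1264 reads, which allows a share of up to 0.237% at 3 counts.

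T052 exceeded the highest of the 10 background codes in 3 of 7 CENP-A libraries, so most of its CENP-A values cannot be told from background. T054 took 0.0724%, 0.154%, 0.0948%, 0.0206%, 0.237%, 0.278% and 0.207%, above the background codes in 6 of 7. T055 took 0.0438%, 0%, 0.0431%, 0.185%, 0.237%, 0.118% and 0.0188%, above them in 4 of 7. The siControl shares of T054 and T055 each rest on 3 reads, and the ranges of T054 and T055 overlap. The lowest share of T051, 1.31%, was above the highest share of any of the other carried members, 0.278%.

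A share of reads holds the copy number of a unit as well as its ChIP recovery, and these cannot be told apart from a share alone. CENP-A density was therefore taken within a condition, as the log2 CENP-A reads of a code, with 0.5 added, less a mark average. That average was over the log2 reads that the 6 marks had on the code, and the median of the 75 carried codes was set to 0. The counting interval of a density covers the CENP-A count only, with the mark average and the median held fixed. Where a code has several copies, its density averages over them. In untreated cells T051 was at 0.46 (counting interval 0.39 to 0.52), which is 1.37-fold above the median code. T052 was at −2.81 (−3.15 to −2.50), T054 at −2.10 (−2.41 to −1.82) and T055 at −3.36 (−3.77 to −3.00), or 6.99-fold, 4.29-fold and 10.3-fold below it. These 3 are the CENP-A poor units of the block.

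The densities of the members in all 7 conditions fell on the same sides of the median code. T051 lay above the median code in 7 of 7 conditions, with densities from 0.42 to 1.60. Its highest densities, 1.60 (release), 1.59 (colcemid) and 1.58 (siHJURP), rest in part on scattered mark libraries. In conditions without a scattered library T051 was at 0.42 to 1.31. T052 (−4.29 to −1.23), T054 (−3.71 to −0.72) and T055 (−4.29 to −0.85) lay below the median code in 7 of 7. The counting interval, which leaves out the error of the mark counts, excluded the median in 6 of 7 conditions for each of the 4. It held the median for T052 in thymidine (−4.60 to 0.30) and in siControl cells for T051 (−0.32 to 1.01), T054 (−3.64 to 0.18) and T055 (−3.35 to 0.47). The lowest value of T055 (−4.29, thymidine) and the siControl value of T052 (−3.64) rest on 0 CENP-A reads and the pseudocount. The lowest value of T052 (−4.29, siKAT7) rests on 9 CENP-A reads. T050 lay above in 7 of 7 (0.95 to 1.99), and the medians of T030 to T050 per condition were 1.07 to 2.11. T065, the next carried code above the block, lay below in 7 of 7 (−1.68 to −0.63), although the median of T065 to T083 was 0.026 to 1.15. Untreated cells chose the codes, and the other 6 conditions are cultures of the same line. Their densities therefore describe the block and are not independent support for the label of a gap. In those 6 conditions T051 lay above the median code, as T050 did, and the other 3 carried codes lay below it.

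CENP-A was then tested in the 42 libraries of the other 6 conditions. The density that chose the codes did not use these libraries, but the median share that counts a code as carried did, and earlier results of them were known. They come from the line in which the codes were chosen, so the calls describe the block and do not test the gap. The fit was edgeR's quasi-likelihood test with condition as a block, in which CENP-A was set against the mean of the 6 marks, with p-values adjusted over 75 codes and 7 contrasts. Since the conditions stand in for replicates, these p-values measure the spread between conditions of 1 line. CENP-A was called higher on 1 of the 4 members, T051, at 1.22 ± 0.41 (log2, SE, adjusted p = 0.0173), where 40% of carried codes were called higher. It was called lower on the other 3, where 33.3% of carried codes were called lower. T052 was at −3.07 ± 0.69 (adjusted p = 0.000694), T055 at −2.38 ± 0.60 (adjusted p = 0.00192) and T054 at −1.65 ± 0.59 (adjusted p = 0.0259), while T050 was at 1.68 ± 0.38 (adjusted p = 0.000768).

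The calls of T052 and T055 held without each single condition and without the libraries of low depth. That of T051 had edgeR adjusted p-values of 0.0568 without thymidine, 0.0573 without siKAT7, 0.110 without siHJURP and 0.175 without the libraries under 10000 reads, and that of T054 had 0.0651 without thymidine, 0.0994 without colcemid and 0.0550 without siControl. With NCU reads as the library size every code moved up, by 3.78 at the median, and T052 was then at 0.60, T055 at 1.36, T054 at 2.27 and T051 at 4.96, so low CENP-A on these codes is relative to other CenU codes and not to NCU.

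H3K9me3 libraries held reads of all 4 carried codes. T051 took 1.07% of T reads in untreated cells, 1.17% in thymidine, 1.11% in colcemid, 1.25% after release, 1.08% in siControl, 1.08% in siKAT7 and 1.10% in siHJURP cells. T052 took 0.814%, 0.825%, 0.834%, 1.39%, 0.779%, 0.874% and 0.856%. T054 took 0.467%, 0.577%, 0.636%, 0.689%, 0.764%, 0.782% and 0.855%. T055 took 0.768%, 0.982%, 0.923%, 0.487%, 0.845%, 0.781% and 0.866%. Each of these 28 values was above all 10 background codes of its library, and T051 was the steadiest of the 4. The codes were counted as carried on their shares in these and the other libraries. Without an input library, shares above background therefore do not measure enrichment of the mark.

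On T052 H3K9me3 had the highest share of the 6 marks in 7 of 7 conditions. In the fit each mark was set against the mean of the other 5, so the 6 values of a code are tied. A low value of 1 mark thereby raises the values of the others. Set against the mean of the other 5 marks, H3K9me3 was called higher on 2 of 4 members, where 21.3% of carried codes were called higher. These were T052, at 2.57 ± 0.41 (edgeR, adjusted p = 1.90e-05), the highest value among the 75 codes, and T055, at 1.26 ± 0.42 (adjusted p = 0.0161). T051 was at 0.66 ± 0.44 (adjusted p = 0.235) and T054 at 0.74 ± 0.46 (adjusted p = 0.201). H3K9me3 was called lower on 0 of the 4, where 32% of carried codes were called lower, and on 17 of the 21 codes T030 to T050. Without the 5 scattered libraries all 4 members were called higher, where 42.7% of carried codes were called higher in that fit, T051 at 0.54 (adjusted p = 0.0127) and T054 at 0.78 (adjusted p = 0.0178). The call of T055 was lost without thymidine (edgeR adjusted p = 0.0823), colcemid (0.0537), siControl (0.0525) or siHJURP (0.0531), while that of T052 held in each alternative.

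T051 and T050 differ by 1 in number and had CENP-A shares of like size, but not H3K9me3 shares. By density T051 was below T050, as in untreated (0.46 and 0.95) and siControl cells (0.42 and 1.62), except after release (1.60 and 1.24). T050 took 0.128%, 0.259%, 0.409%, 0.431%, 0.174%, 0.267% and 0.245% of T reads with H3K9me3, all below the 7 values of T051. Within a library, where scaling cancels, the reads of T051 were 2.72-fold to 8.38-fold those of T050 for H3K9me3 (median 4.49, above 1 in 7 of 7). For H3K36me2 they were 1.24-fold to 2.07-fold (7 of 7), and for CENP-A 0.800-fold to 1.63-fold (above 1 in 4 of 7). The medians were 1.55 for H3K4me2, 1.26 for H3K14ac, 1.32 for H4K8ac and 1.09 for H4K20me1, each with values on both sides of 1. These ratios also hold the ratio of copy numbers, which is the same in every library of the line. The spread between antibodies is free of it only where each code has 1 copy, since reads of several copies are summed. The study found only part of the codes of this line in single copy, and the copies of T050 and T051 were not examined here. Between T051 and T052 the H3K9me3 ratio was 0.896 to 1.42. The CENP-A ratio of that pair was 22.0 to 208 in the 3 conditions with more than 3 reads on both.

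In the same fit T050 was at −1.05 ± 0.47 for H3K9me3 (edgeR, adjusted p = 0.0727), and the codes T030 to T050 had a median of −1.44. The difference between T051 and T050 was not tested on its own.

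H3K36me2 shares on T054 and T055 were high relative to the other marks on the same codes. T055 took 1.05% in untreated cells, 1.10% in thymidine, 0.994% in colcemid, 0.974% after release, 0.905% in siControl, 0.877% in siKAT7 and 1.10% in siHJURP cells, and T054 took 1.01%, 0.716%, 0.659%, 0.705%, 1.00%, 1.08% and 1.18%. H3K36me2 had the highest share of the 6 marks on T055 in 6 of 7 conditions and on T054 in 5 of 7. T052 took 0.300% to 0.784%, highest after release, and T051 0.523% to 0.779%. H3K36me2 was called higher on 2 of 4 members, where 10.7% of carried codes were called higher, T055 at 1.39 ± 0.41 (edgeR, adjusted p = 0.00837) and T052 at 1.20 ± 0.45 (adjusted p = 0.0316).

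T054 was at 0.95 ± 0.45 (edgeR, adjusted p = 0.0931) and T051 at −0.42 ± 0.47 (adjusted p = 0.523). The T052 value fell to 0.66 (adjusted p = 0.178) without release, and its adjusted p was 0.0849 without thymidine and 0.0847 without siHJURP. Without the scattered libraries T052 was at 0.76 (adjusted p = 0.0890), T054 was called higher at 0.97 (adjusted p = 0.00346) and T051 was called lower at −0.53 (adjusted p = 0.0224), where 28% of carried codes were called higher and 34.7% lower. T054 was called as well without the release libraries alone, at 1.10 (adjusted p = 0.00498).

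H4K20me1, like CENP-A, had its highest share of the 4 carried members on T051 and low shares on T054 and T055. T052, the lowest of the 4 in the CENP-A fit, was not called for H4K20me1. T051 took 1.67% in untreated cells, 1.59% in thymidine, 1.33% in colcemid, 3.50% after release (a scattered library), 1.67% in siControl, 1.82% in siKAT7 and 0.597% in siHJURP cells. T054 took 0.141%, 0.222%, 0.316%, 0%, 0.184%, 0.164% and 0.0281%, and T055 took 0.179%, 0.0561%, 0.194%, 0%, 0.160%, 0.343% and 0.250%. The zeros were 0 of 9578 reads in the release library, which allows up to 0.0313%. T052 took 0.390%, 0.149%, 0.250%, 0.0835%, 0.457%, 0.608% and 0.172%, below T051 in 7 of 7 libraries and above both T054 and T055 in 4 of 7.

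H4K20me1 had the highest share of the 6 marks on T051 in 6 of 7 conditions and the lowest on T054 in 7 of 7. It was called lower on 2 of 4 members, where 25.3% of carried codes were called lower, T054 at −2.24 ± 0.58 (edgeR, adjusted p = 0.00260), the lowest value among the 75 codes, and T055 at −1.74 ± 0.53 (adjusted p = 0.00907). Without thymidine the adjusted p of T055 was 0.0527. It was called higher on 1 of 4, where 36% of carried codes were called higher, T051 at 1.09 ± 0.42 (adjusted p = 0.0404). That call was near the limit and was lost without each single condition in turn, with adjusted p-values of 0.0631 to 0.0936 and log2 values of 0.78 to 1.18, while without the 5 scattered libraries T051 was at 0.64 (adjusted p = 0.00543), where 45.3% of carried codes were called higher. T052 was at −0.07 ± 0.47 (adjusted p = 0.916).

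Both acetylation marks and H3K4me2 gave fewer calls. H4K8ac on T052 was 0.186% in untreated cells, 0.0979% in thymidine, 0.279% in colcemid, 0.0142% after release, 0.330% in siControl, 0.0127% in siKAT7 and 0.0360% in siHJURP cells. It exceeded the background codes in 5 of 7 libraries and lay at or below the median of the other 5 marks in 7 of 7. H4K8ac was called lower on 1 of 4 members, T052, at −1.78 ± 0.54 (edgeR, adjusted p = 0.00940), where 9.33% of carried codes were called lower. Without siHJURP the adjusted p was 0.0573. The other 3 took 0.207% to 1.94% (T054), 0.345% to 1.91% (T051) and 0.250% to 0.972% (T055), each highest in the scattered release library. Without that library their highest values were 0.953%, 1.24% and 0.551%, and 0 of 4 members were called higher, against 20% of carried codes. T054 was at 1.06 ± 0.49 (edgeR, adjusted p = 0.0824) in all 42 libraries and at 0.09 (adjusted p = 0.839) without the scattered ones, and H4K8ac had the highest share of its 6 marks in 2 of 7 conditions.

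H3K14ac was called on 0 of 4 members by edgeR, where 16% of carried codes were called higher and 0% lower. T052 was lowest at −1.32 ± 0.54 (adjusted p = 0.0505, unadjusted p = 0.0191), and DESeq2 called it lower. Its edgeR adjusted p was 0.0329 without siControl and 0.0316 without siKAT7. It was 0.0820 without thymidine, 0.170 without colcemid, 0.0914 without release and 0.186 without siHJURP. Without the 5 scattered libraries T052 was at −0.74 (edgeR, adjusted p = 0.236) and was not called. H3K4me2 was also called on 0 of 4 by edgeR, where 6.67% were called higher and 4% lower. The values were −0.93 (T051), −0.60 (T052), −0.15 (T054) and 0.15 (T055), with unadjusted p-values from 0.0751 to 0.777. Without the 5 scattered libraries H3K4me2 was called lower on T051, at −0.68 (adjusted p = 0.0107), where 13.3% of carried codes were called lower.

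Set side by side, T051 paired a CENP-A density above the median code with H4K20me1 most often as its leading mark, as T050 did. Its density ranked 43 from the lowest of 75 codes in untreated cells, 45 in siControl and up to 71 in siHJURP cells. Its calls for CENP-A and H4K20me1 were each lost in several of the alternative fits. T052 paired a low density with H3K9me3 as its leading mark and with low H4K8ac. T055 and T054 paired a low density with low H4K20me1, and H3K36me2 most often had the highest share of the marks on both. Within libraries the reads of T054 were 0.650-fold to 1.24-fold those of T055 for H3K36me2 and 0.588-fold to 1.42-fold for H3K9me3. T054 and T055 are neighbours in number, neighbouring codes need not be independent, and the likeness was not tested.

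Changes between conditions were taken as the log2 ratio of a code's share of T reads between 2 libraries, and counted where the fold was at least 2, the counting interval excluded 0 and 1 of the libraries had at least 100 reads of the code. With 1 library per condition there is no test. A share of T reads cannot show a rise or fall that is common to all CenU codes. As a yardstick, siControl cells were set against untreated cells, neither of which was arrested or depleted of a protein. Here T054 passed the limit in 3 of 7 antibodies. It went from 0.352% to 0.778% in H3K4me2 (1.14, interval 0.74 to 1.52), from 0.187% to 0.384% in H3K14ac (1.04, 0.79 to 1.28) and from 0.207% to 0.485% in H4K8ac (1.23, 0.94 to 1.51).

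The shares of all carried codes past the limit upward in these yardstick pairs were 6.67%, 12% and 8%. No other member passed in any antibody. H3K9me3 on T054 also went from 0.467% to 0.764% (0.71, 0.55 to 0.87), below the limit, while its H3K36me2 was 1.01% and 1.00%. Changes on T054 of the size of 1.2 on the log2 scale were thus seen between these 2 conditions.

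CENP-A passed the limit in 0 of the 5 values of the members that met the minimum of 100 reads, out of 20 over the 5 comparisons. Of all values of carried codes that met it, 2.94% passed upward and 3.68% downward. T051 was at −0.44 (−0.83 to −0.01) from thymidine to colcemid and at 0.97 (0.81 to 1.12) from colcemid to release, where 3.08% of tested codes passed upward. It was at 0.53 (0.14 to 0.95) from thymidine to release. After siKAT7 it was at 0.57 (−0.06 to 1.29), and after siHJURP at −0.23 (−0.96 to 0.57), where the siControl library had 20 reads of T051. The study scaled the code reads by qPCR recovery. It reported less CENP-A in colcemid than in thymidine cells of this line, and less after either depletion. Those qPCR values were not used here, so the shares do not measure such a change.

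With NCU reads as the reference the T051 values were −1.34 to colcemid, 1.37 from colcemid to release and 1.07 after siKAT7, past the limit in all 3. The CENP-A reads of T052, T054 and T055 were too few for changes to be read in most pairs. T055 had 15 reads in colcemid and 54 after release, a log2 change of 2.10 (1.26 to 3.03), while T054 had 33 and 6 (−2.20, −3.75 to −0.93) and T052 had 22 and 3 (−2.62, −5.00 to −0.88). From siControl to siKAT7 T054 was at 0.23 (−1.34 to 2.52), with 3 and 221 reads. T055 had 3 and 94 reads in that pair, and its interval of −2.60 to 1.30 held 0.

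H3K9me3 was measured with at least 305 reads per member in each library. Of 20 values 0 passed upward and 1 downward, against 1.87% and 4.28% of the values of all carried codes. That value was T055 from thymidine to release, at −1.01 (−1.19 to −0.83), where 9.46% of tested codes passed downward. From colcemid to release T055 was at −0.92 (−1.08 to −0.77) while T052 was at 0.74 (0.61 to 0.86), T051 at 0.16 (0.05 to 0.28) and T054 at 0.12 (−0.04 to 0.27). All 4 values were below the limit, and the yardstick pair gave 0.71 on T054 for the same mark.

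From thymidine to colcemid the H3K9me3 values of the 4 members were −0.09 to 0.14. After siKAT7 they were 0.01 (T051), 0.16 (T052), 0.03 (T054) and −0.11 (T055), and after siHJURP 0.03, 0.14, 0.16 and 0.04. As shares of T reads these are changes of little size. With NCU reads as the reference the same amount is added to every code of a pair, and the 4 values became 0.85 to 1.12 after siKAT7 and 1.16 to 1.29 after siHJURP. On that scale all 4 members passed the limit after siHJURP and T052 did after siKAT7. Whether H3K9me3 on these units rose or NCU units took fewer H3K9me3 reads cannot be told apart from the codes alone.

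H3K36me2 changed past the limit in 0 of 20 values, against 0.845% of the values of all carried codes in each direction. H4K20me1 passed upward in 4 and downward in 7 of the 18 values that met the minimum, where 16.5% and 25.2% of such values of all carried codes did. Without the scattered release library it passed in 2 and 3 of 12, where 14.7% and 16% did. After siHJURP it was lower on T051 (1.67% to 0.597%, −1.49, −1.61 to −1.36), on T052 (0.457% to 0.172%, −1.41, −1.65 to −1.17) and on T054 (0.184% to 0.0281%, −2.71, −3.30 to −2.18), where 16% of carried codes passed downward. T055 differed, at 0.160% and 0.250% (0.65, 0.38 to 0.92). In the yardstick pair H4K20me1 of the 4 members was at −0.16 to 0.38. After siKAT7 T055 passed upward (0.160% to 0.343%, 1.10, 0.82 to 1.38), where 10.7% of carried codes passed upward. From thymidine to colcemid T055 passed upward as well (0.0561% to 0.194%, 1.79, 1.17 to 2.46), where 30.7% did, and T051 was at −0.26 (−0.40 to −0.11).

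H4K8ac passed upward in 5 and downward in 1 of the 14 values that met the minimum, where 11.5% and 19.3% of such values of all carried codes did, and without the scattered library in 2 and 1 of 8, where 5.07% and 11.5% did. From thymidine to colcemid T054 (0.370% to 0.953%, 1.37, 0.98 to 1.77) and T055 (0.250% to 0.551%, 1.14, 0.66 to 1.65) were higher, where 13.7% of tested codes passed upward. The T054 value is close to its own yardstick of 1.23. After siHJURP T051 was lower (1.24% to 0.345%, −1.85, −2.10 to −1.61), where 13.7% passed downward. T052 had 85 reads in siControl, 3 in siKAT7 and 26 in siHJURP cells, below the minimum of 100 reads, and its log2 changes were −4.70 (−7.01 to −3.11) and −3.19 (−3.89 to −2.54).

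H3K14ac passed upward in 4 and downward in 4 of the 15 values that met the minimum, where 15.6% and 22.5% of such values of all carried codes did, and without the scattered libraries in 1 and 0 of 7, where 9.46% and 10.8% did. The value that remained was T054 from thymidine to release, at 1.22 (0.16 to 2.55) on 7 and 277 reads, where 6.85% of tested codes passed upward. The 4 falls were all 4 members after siHJURP, from 0.384% to 0.987% in siControl down to 0.0106% to 0.0408%. The highest background code of the siHJURP library was at 0.0755%, so these end values are near background. In that scattered library 62.7% of carried codes fell past the limit, with a median of −2.83, and the members' count is read against that share. After siKAT7, which depletes an H3K14 acetyltransferase, H3K14ac of the members was at −0.01 (T051), −0.73 (T052), 0.45 (T054) and 0.70 (T055), with 0 of 4 past the limit, where 14.7% of carried codes passed downward and 12% upward.

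H3K4me2 passed upward in 3 and downward in 6 of the 15 values that met the minimum, where 9.97% and 19.6% of such values of all carried codes did, and without the scattered library in 1 and 1 of 8, where 4.09% and 5.85% did. These were both from thymidine to colcemid. T052 was higher (0.102% to 0.428%, 2.07, 1.42 to 2.80), where 4.05% of tested codes passed upward, and T051 was lower (0.693% to 0.228%, −1.60, −1.88 to −1.32), where 13.5% passed downward.

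In the other HAC lines other stretches of the same 14 codes reached 0.1% of T reads, judged here from 1 CENP-A library each. A carried code with little CENP-A can miss this limit. The codes counted and the line medians are thus selected on the share that is described. HAC 4-49 had T051 to T060 at or above 0.1% of T reads, 10 of 14. Their CENP-A shares ran from 0.878% (T054, interval 0.855 to 0.901) to 2.18% (T055, 2.14 to 2.22), with a median of 1.57%, and summed to 15.7% of 626203 T reads. The median of all 78 codes at the limit in that line was 1.16%. T051 took 1.52%, T052 1.56% and T053 1.66%, while T061 to T064 took 0.0149% to 0.0653%. T052 and T055, which took under 0.1% of the CENP-A reads in untreated HAC 4-65 cells, were thus at 1.35-fold and 1.89-fold the median code of HAC 4-49, and T054 was at 0.760-fold.

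In HAC 4-2 the other end of the block reached the limit, T057 to T064, 8 of 14. They took from 0.186% (T063, interval 0.131 to 0.256) to 0.637% (T061, 0.531 to 0.758) of 19931 T reads, with a sum of 3.49%, against a median of 1.33% over the 67 codes at the limit. T063 and T064 were the lowest of those 67 codes, and T061 ranked 22 from the lowest. T051 to T056 took 0.0100% to 0.0702%. T065, the next number, took 2.12%. All 8 members of HAC 4-2 were therefore below the median share of the line.

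HAC 3-6 had only T064 at the limit, at 0.167% (0.160 to 0.175) of 1162203 T reads, 0.0797-fold the median of its 48 codes, and the other 13 took 0.00387% to 0.0156%. HAC 1-8 had 0 of 14, with a sum of 0.459% (0.312 to 0.650) of 6759 reads, and at this depth 3 reads are 0.0444%. In untreated HAC 4-65 cells the CENP-A library alone placed only T051 at the limit, so a CENP-A poor code can be carried without being seen in such a library. The study also read the codes from genomic DNA to estimate copy number, and those reads were not used here. Density was not taken for these lines, which had no mark libraries. From the CENP-A libraries alone a low share cannot be told apart from fewer copies, nor a high share from more copies.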

How the data were processed

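ChIP used formaldehyde-fixed HT1080 cells, and the DNA of 3 reactions was pooled per library before competitive PCR of the codes and sequencing. The authors trimmed reads with cutadapt 4.0, matched them to the code list with Bowtie and counted them with SAMtools. The deposited values are raw read counts per code, with no normalization. No genome build applies, since reads were matched to the codes only. Unmatched reads were 6.39% to 12.7% and were left out. Sequences were read from the study's list of primers and codes.

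Groups (line, antibody, condition) came from the labels, where H4K20me1 is misprinted in some titles. Counts of the 75 carried T codes were fitted with edgeR 4.0.16 (TMM, quasi-likelihood, two-sided, Benjamini-Hochberg at 0.05) in R 4.3.3, with DESeq2 1.42.0 as an alternative. The fit was tested on simulated data. Shares and ratios have exact (Clopper-Pearson) 95% intervals, computed in Python 3.11. TMM scales on the T codes, and the pseudocount of density was 0.5 reads. The members and lists were chosen with earlier results of these data known. Named were all carried members, T050 and T065 as neighbours, the runs on either side, the nearest dropped code, all CENP-A and H3K9me3 changes, other changes past 2-fold, and the highest and lowest carried member per line. T053, T061 and further codes outside that rule, changes below the limit and ratios between codes were chosen after their values were seen, as were the scatter limit of 1.5 and the fits without scattered libraries.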

Additional observations from a re-analysis of the deposited data

Results flagged for a closer look

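HAC 1-20 carries none of T051 to T064, yet 6 of its 49 libraries had at least 1 of these codes at or above 0.1% of T reads, in 26 of 686 values. The highest was T056 at 0.671% (exact binomial interval 0.621 to 0.723) in H3K14ac after release, where 3 reads are 0.00301%. The other 5 libraries were from untreated cells. Their highest values were T051 at 0.448% in H3K14ac, T064 at 0.205% in H3K9me3 on 3 reads, T055 at 0.187% in H4K8ac, T063 at 0.175% in H3K4me2 and T060 at 0.168% in H3K36me2 on 5 reads. T056 was not carried by HAC 4-65 either, where its highest share was 0.0478%. The source of these reads was not tested.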

How the results depend on the processing

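Of the 12 calls on single members, 5 kept call and direction under all alternatives other than NCU reads as library size: CENP-A lower on T052 and T055, H3K9me3 higher on T052, H3K36me2 higher on T055 and H4K20me1 lower on T054. All 12 kept their direction there. With NCU reads as library size, CENP-A was reversed on T052 (0.60), T054 (2.27) and T055 (1.36), and H3K36me2 on T051 (1.11). The median of all carried codes moved then by 3.78 for CENP-A, 1.58 for H3K36me2 and −1.15 for H3K9me3. Members called were then 3 higher and 0 lower for CENP-A, 3 lower for H3K14ac, 2 higher and 0 lower for H4K8ac, 0 higher for H4K20me1, 4 higher for H3K36me2 and 1 higher for H3K9me3. RLE size factors, which moved the CENP-A median by −0.31, gave 0 higher for CENP-A and 0 for H4K20me1. No filter on low codes gave 0 higher for CENP-A, 0 for H4K20me1 and 1 for H3K9me3. Members called higher in H4K20me1 were 0 with total T reads only, with DESeq2, with a minimum of 0.05% and without libraries under 10000 reads, which also gave 0 higher for CENP-A. Members called lower in H3K14ac were 1 with DESeq2 and 1 with a minimum of 0.05%, and members called higher in H3K36me2 were 1 with a minimum of 0.2%. Without the 5 scattered libraries, 1 was called lower in H3K4me2, 1 lower in H3K36me2 and 4 higher in H3K9me3. Without these and the shallow libraries, 1 was lower in H3K36me2.

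Leaving out 1 condition at a time, members called ranged from 0 to 1 higher and 2 to 3 lower for CENP-A, 0 to 0 higher and 1 to 2 lower for H4K20me1, 0 to 1 lower for H3K14ac, 0 to 1 lower for H4K8ac, 1 to 2 higher for H3K36me2 and 1 to 3 higher for H3K9me3. Of all tests 37.7% were called, and 24.4% without thymidine, 25.7% without siControl, 53.9% with NCU reads and 56.4% without the scattered libraries. The fit already held condition as a block, and pairing by replicate number was not open because each group had 1 library and the labels give no such numbers.

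CENP-A density in untreated cells was 0.058 for T051 and −3.13 for T054 with marks of siControl cells as the proxy, and 0.78 for T051, −2.89 for T054 and −3.97 for T055 with 3 H3 methylation marks. Taken in siControl cells alone it was −3.64 for T052, −1.14 for T054 and −0.85 for T055. Members past the fold limit over 5 comparisons were 3 for CENP-A, 1 for H3K36me2 and 7 for H3K9me3 with NCU reads, 0 for H3K9me3 with the median of carried codes as reference, 1 for CENP-A, 1 for H3K36me2 and 4 for H3K9me3 at a fold of 1.5, and 5 for CENP-A, 13 for H3K14ac and 11 for H4K8ac with no minimum of reads. Without the scattered libraries they were 2 for H3K4me2, 1 for H3K14ac, 3 for H4K8ac and 5 for H4K20me1. At a minimum of 0.02% 8 members reached the limit in HAC 1-8 and 13 in HAC 4-2, and at 0.5% 1 in HAC 4-2 and 0 in HAC 3-6. As a share of T and L reads the members summed to 2.82% in HAC 4-2, 0.266% in HAC 3-6 and 7.22% in HAC 4-49. The cause of these differences was not tested. T reads were fewest in CENP-A of siControl (1264) and thymidine (2599) cells, H3K4me2 of siHJURP cells (1772) and H3K14ac of thymidine cells (2757).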
